A study of Rattus norvegicus with 24 samples.

Results

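Condensin and cohesin are ring-shaped protein complexes, and the 10 genes described here code for 5 condensin subunits (Smc2, Smc4, Ncapd2, Ncapd3 and Ncaph2) and 5 cohesin subunits (Smc1a, Smc3, Rad21, Stag1 and Stag2). They were taken by gene name from the rat reference genes of each library's table, and all 10 were found, each with 1 entry, among 32883 reference genes. All 10 passed a minimum mean of 1 and were therefore among the 15644 genes tested. The tissue was frontal cortex of adult male Sprague-Dawley rats, taken 24 h after inhalation of an aerosol of tungsten particles. The Control group breathed 0 mg/m3 of tungsten (libraries 49 to 56), the Low group 5 mg/m3 (libraries 57 to 64) and the High group 80 mg/m3 (libraries 65 to 72), with 8 rats in each. Every sample title also carries the word Repeat, which the titles do not explain. No other treatment, allele or transgene is named in the labels. An extraction note in the labels speaks of cell lines, whereas the tissue field and the study's description give frontal cortex tissue.

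Condensin folds mitotic chromosomes into compact rods, and cohesin holds sister chromatids together until they separate. In cells that no longer divide, cohesin also forms the loops of interphase chromosomes by drawing DNA through its ring until it meets the DNA-binding protein CTCF. Neurons of the adult cortex do not divide, so in this tissue the loop-forming role of cohesin is the one usually considered. Each complex has a pair of SMC ATPases that form the arms of the ring (Smc2 with Smc4, Smc1a with Smc3). A kleisin closes the ring (Ncaph2 in condensin II, Rad21 in cohesin), and large HEAT-repeat subunits bind it (Ncapd2 in condensin I, Ncapd3 in condensin II, Stag1 or Stag2 in cohesin). The study named chromosome condensation and segregation among the processes that told its groups apart, and the comparisons below ask how the subunit genes themselves behaved.

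Some promoters of the members carried short motifs of cell cycle genes, which are shown because they were not used to choose the members and fell in 1 complex each. No test of that split was run, and Ncapd3, Smc3 and Stag2 carried neither the CHR nor the E2F site described below. RefSeq promoter sequences of the build GRCr8, from 250 bases before to 50 bases after the gene start, were matched by symbol for 9 of the 10 members. The CHR, the cell cycle genes homology region bound by the MuvB complexes that time mitotic transcription, was searched on both strands as TTTGAA or TTCGAA. It was found in 4 of the 5 condensin promoters, all but that of Ncapd3, and in 0 of the 4 cohesin promoters with an entry, against 19.7% of all 33469 promoters of this length. The windows from 110 to 51 bases before the gene start are given below on the strand of the gene, 5′ to 3′, with the CHR match in capitals.
Smc2 (chr5:71602295-71602354, + strand): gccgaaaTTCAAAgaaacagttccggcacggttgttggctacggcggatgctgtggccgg
Smc4 (chr2:155550152-155550211, + strand): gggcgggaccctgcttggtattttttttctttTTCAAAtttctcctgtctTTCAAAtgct
Ncapd2 (chr4:159677989-159678048, - strand): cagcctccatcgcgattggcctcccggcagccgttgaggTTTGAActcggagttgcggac
Ncaph2 (chr7:122302469-122302528, + strand): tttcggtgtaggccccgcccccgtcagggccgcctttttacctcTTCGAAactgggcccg

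The match began 103 bases before the gene start in Smc2, 78 and 60 bases before it in Smc4, 71 bases before it in Ncapd2 and 66 bases before it in Ncaph2. The capitals TTCAAA are TTTGAA read on the other strand. An E2F site, searched as TTTCCCGC, TTTGGCGC, TTTCGCGC or TTTGCCGC on both strands, was found in 2 of the 4 cohesin promoters and in 0 of the 5 condensin promoters, against 2.14% of all promoters. E2F factors switch on genes at the start of DNA replication. Both cohesin matches are given with the site in capitals, from 60 to 1 bases before the start of Smc1a and from 170 to 111 bases before that of Stag1.
Smc1a (chrX:24582672-24582731, + strand): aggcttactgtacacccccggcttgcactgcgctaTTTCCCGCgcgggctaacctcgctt
Stag1 (chr8:110057886-110057945, + strand): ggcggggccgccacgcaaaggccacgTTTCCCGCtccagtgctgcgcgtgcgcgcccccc

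Of the other motifs searched on both strands, the CCAAT box (CCAAT) was in 3 condensin and 3 cohesin promoters and in 37.5% of all promoters. The GC box (GGGCGG) was in 2 condensin promoters and 1 cohesin promoter, against 33.1% of all. The TATA box (TATAAA) was in 0 condensin promoters and in 1 cohesin promoter, that of Smc3, against 14.2% of all. Matches of different motifs may share a few letters. A match is a description of these letters and was not tested for binding.

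For each library the authors deposited a gene table written by StringTie, which builds transcripts from aligned reads and measures each gene. Its coverage column, the mean read depth per base of a gene, was divided by the sum over all reference genes of that library and multiplied by 1000000, which is called scaled coverage here. Because coverage is per base, levels were compared between genes in this column. The deposited FPKM column kept a constant ratio to coverage, within 0.005 in all 24 libraries, for 59.1% of genes tested. For the others, levels relative to other genes depend on the column. The tables give no read counts, and the counting error of a value is therefore unknown. Libraries 56 to 62, which are 1 Control and 6 Low libraries, stood apart in the summed scaled coverage of the short mitochondrial genes on the minus strand (5449 to 8102, against 84.9 to 155 in the other 17). The Low tables list 0 assembled loci, while each Control table lists between 46334 and 159573 of them and each High table between 50235 and 64010. That difference between tables and the Low exposure cannot be told apart. Mitochondrial genes held 21.8 to 33.8% of the coverage. Markers of cortical excitatory neurons were present (Slc17a7 at a mean of 702, Tbr1 at 50.1). Some marker sums moved with the groups. A separate list of 5 general neuron markers summed to 1388 to 1809 in the Control rats (median 1619), 1474 to 2114 in the Low rats (median 1799) and 1218 to 1778 in the High rats (median 1560). The 4 meningeal fibroblast markers found of 5 had sums of 67.2 to 161 in the Control rats (median 92.1), 36.8 to 115 in the Low rats (median 54.0) and 33.0 to 121 in the High rats (median 98.0). The 5 striatal markers were most spread in the High rats, with sums of 47.0 to 402 there, against 99.9 to 267 in the Control rats and 57.7 to 188 in the Low rats. The part of these cell types in the differences below was not tested. The 8 markers of dividing cells had sums between 9.04 and 12.99 in Control, between 8.64 and 13.4 in Low and between 7.62 and 13.99 in High, with means from 0.347 for Aurkb, 0.876 for Top2a and 0.946 for Mki67 to 2.61 for Ccnb1 and 3.15 for Birc5, and 3 of the 8 at 1 or above. As this is bulk tissue, fewer cells of a type and less RNA per cell cannot be told apart.

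The 10 genes spanned a 13.4-fold range of mean scaled coverage over the 24 libraries. Rad21 stood highest at 71.4 ± 7.63 (SD, n = 24), followed by Smc1a at 65.4 ± 8.22, Ncaph2 at 45.1 ± 5.01, Smc3 at 33.8 ± 3.72 and Stag2 at 23.8 ± 3.28. The other 5 lay close together, with Smc2 at 10.1 ± 1.45, Stag1 at 8.50 ± 1.53, Smc4 at 7.82 ± 0.995, Ncapd3 at 7.12 ± 0.996 and Ncapd2 at 5.33 ± 0.814. Among all genes tested, Rad21 was at the 86.7th percentile of mean level and Ncapd2 at the 25.5th. Between the upper and the lower 5 the ranges of Stag2 and Smc2 did not overlap, with Stag2 2.36 times as high. Within each library Rad21 exceeded Smc1a in 22 of 24, and Smc1a, Ncaph2, Smc3 and Stag2 kept their order in 24 of 24. In the lower 5, Smc2 exceeded Stag1 in 20 of 24 libraries and Smc4 exceeded Ncapd3 in 18 of 24. Stag1 exceeded Smc4 in only 15 of 24, so these neighbours did not differ beyond their spread. The order followed the complex only in part, since 4 of the upper 5 were cohesin genes, while Ncaph2, the kleisin of condensin II, stood among them and Stag1 among the condensin genes.

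**Figure D1:**
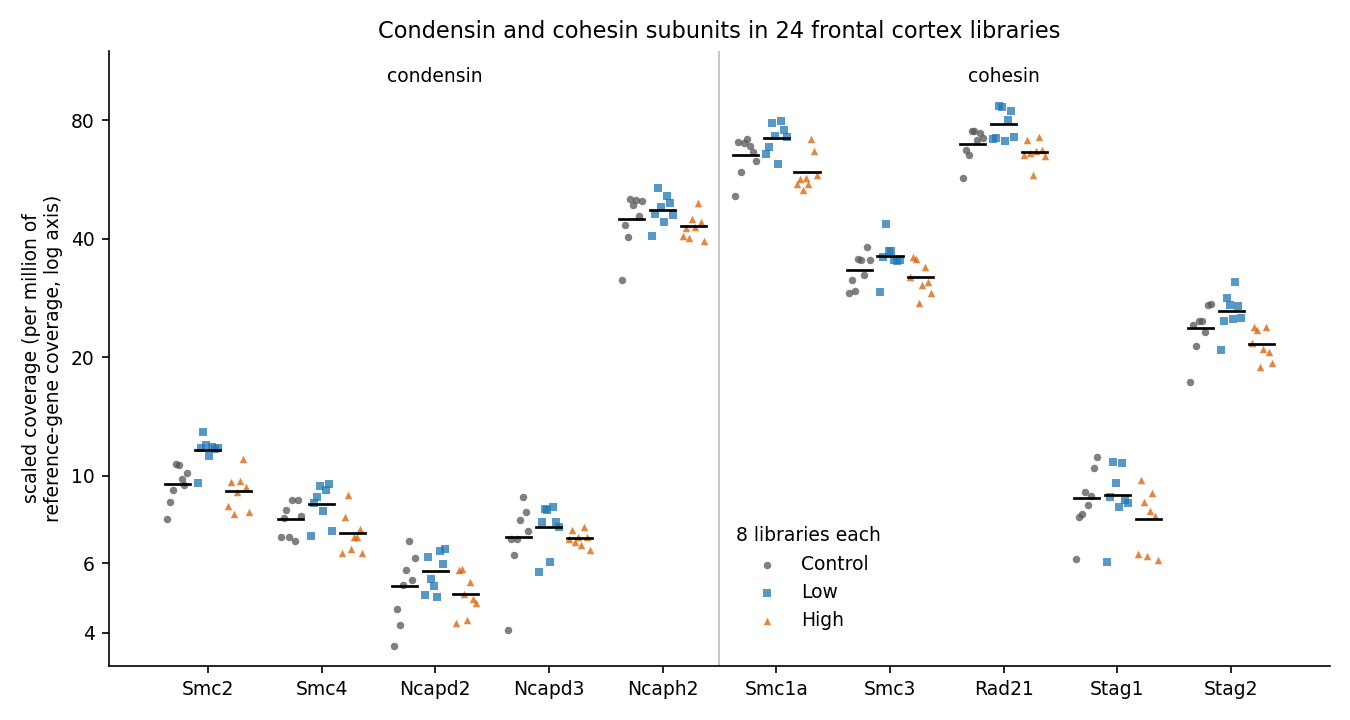
Scaled coverage (log axis) of the 5 condensin genes (left) and 5 cohesin genes (right) in each of the 24 libraries, with Control as grey circles, Low as blue squares, High as orange triangles and the black bar at each group's mean. For every gene the 3 groups overlap, and the lowest Control point (library 49) lies below the rest of its group for most genes.

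Smc2, the SMC ATPase shared with Smc4 by condensin I and II, had the largest log2 fold change of the 10 in both Low comparisons. It lies on chromosome 5 from 68717519 to 68763850 on the + strand in the tables (ENSRNOG00000022325). Its scaled coverage was 7.78 to 10.7 in the Control rats (median 9.65), 9.59 to 12.9 in the Low rats (median 11.8) and 8.01 to 11.1 in the High rats (median 9.24). The Low values lay high, with 7 of 8 above the Control median and 8 of 8 above the High median, although the groups overlapped at their ends. In Low against Control its log2 fold change was 0.26 (SE 0.073, 1.20-fold, adjusted p = 0.0341 by limma), and in Low against High it was 0.31 (SE 0.073, 1.24-fold, adjusted p = 0.00593). In High against Control it was -0.053 (SE 0.073, adjusted p = 0.999). Fold changes here and below are on the log2(scaled coverage + 1) scale, which understates changes of low genes, and adjusted p-values are by the Benjamini-Hochberg method over all 15644 genes. The Low against Control call was lost by an exact Wilcoxon rank-sum test (adjusted p = 0.0645), with only those 2 groups in the fit (0.0662), with a covariate for libraries 56 to 62 (0.345), with unscaled coverage (0.9995) and without each of 8 single libraries. The difference itself stayed of like size, at 0.25 with the covariate, 0.24 unscaled and 0.22 to 0.29 with each library left out. The lowest adjusted p over all 35 alternatives was 0.00881. Libraries 57 to 62 had 9.59 to 12.9 and the Control library that shares their mitochondrial pattern had 10.2, while Low libraries 63 and 64 had 11.7 and 11.8 against 7.78 to 10.7 in Control libraries 49 to 55.

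Smc4, the partner of Smc2 in the ring (chromosome 2, 165601007 to 165629415, + strand, ENSRNOG00000010274), ran from 6.84 to 8.67 in the Control rats (median 7.85), 7.02 to 9.56 in the Low rats (median 8.71) and 6.37 to 8.94 in the High rats (median 7.0). Its log2 fold change was 0.12 (SE 0.078) in Low against Control and 0.22 (SE 0.078, adjusted p = 0.0689 by limma) in Low against High. Neither passed the threshold, although the Low value exceeded the High median in 8 of 8 libraries. The microRNA genes Mir15b and Mir16 lie inside Smc4 on its strand and were listed at a mean of 0 in these poly(A) libraries.

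Ncapd2, the HEAT-repeat subunit of condensin I (chromosome 4, 157683077 to 157704596, - strand, ENSRNOG00000055300), had the lowest level, with 3.70 to 6.82 in the Control rats (median 5.36), 4.92 to 6.54 in the Low rats (median 5.73) and 4.25 to 5.80 in the High rats (median 4.94). An unnamed gene on the same strand overlaps 328 bases of it, at a mean of 1.82, so reads there could be counted for either. Ncapd3, its counterpart in condensin II (chromosome 8, 28075551 to 28144741, + strand, ENSRNOG00000008932), ran from 4.07 to 8.84 in the Control rats (median 7.09), 5.71 to 8.37 in the Low rats (median 7.64) and 6.49 to 7.42 in the High rats (median 6.95). The High values of Ncapd3 were closely packed, with an SD of 0.305 against 1.42 in Control and 1.004 in Low. Ncaph2 (chromosome 7, 130326600 to 130342493, + strand, ENSRNOG00000009598) ran from 31.4 to 50.4 in the Control rats (median 47.2), 40.6 to 53.8 in the Low rats (median 47.2) and 39.4 to 49.3 in the High rats (median 42.7). Its end overlaps 11 bases of Tymp on the other strand. None of these 3 genes passed the threshold in any comparison. The largest of their log2 fold changes was 0.16 (SE 0.097) for Ncapd2 in Low against High, with a 95% confidence interval from -0.038 to 0.36.

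Among the cohesin genes Smc1a, Rad21 and Stag2 were higher in Low than in High, and Smc3 and Stag1 did not pass the threshold. Smc1a, an X-linked SMC ATPase (chromosome X, 21711019 to 21755525, + strand, ENSRNOG00000003139), ran from 51.4 to 71.7 in the Control rats (median 67.6), 61.9 to 79.6 in the Low rats (median 72.8) and 53.1 to 71.8 in the High rats (median 56.9). All 8 Low values were above the High median, and 1 of 8 High values was above the Control median. It rose in Low against High by 0.28 on the log2 scale (SE 0.074, 1.21-fold, adjusted p = 0.0142 by limma). Against Control the log2 fold change was 0.14 (SE 0.074, adjusted p = 0.300) in Low and -0.13 (SE 0.074, adjusted p = 0.999) in High.

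Rad21, the kleisin that separase cuts to release sister chromatids (chromosome 7, 91511756 to 91538673, - strand, ENSRNOG00000004420), ran from 57.1 to 75.3 in the Control rats (median 71.7), 70.6 to 86.9 in the Low rats (median 76.3) and 58.1 to 72.7 in the High rats (median 66.5). It was 0.23 higher on the log2 scale in Low than in High (SE 0.063, 1.17-fold, adjusted p = 0.0201 by limma) and did not pass the threshold in Low against Control (0.16, SE 0.063, adjusted p = 0.153). The first 57 bases of its gene are shared on the same strand with the gene AABR07057872.1, at a mean of 5.66. Without the mitochondrial genes in the sum used for scaling, the Low against Control difference was 0.19 and passed it (adjusted p = 0.0237). Without Low library 59 the Low against High value was 0.20 and no longer passed (adjusted p = 0.0509).

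Smc3, the other SMC ATPase of cohesin (chromosome 1, 274309758 to 274352854, + strand, ENSRNOG00000014173), ran from 29.1 to 38.1 in the Control rats (median 33.8), 29.3 to 43.7 in the Low rats (median 35.7) and 27.5 to 36.0 in the High rats (median 31.5). Its log2 fold change in Low against High was 0.17 (SE 0.072, adjusted p = 0.121 by limma). The start of Smc3 lies beyond 270492571, where the last RefSeq gene on chromosome 1 ends in GRCr8. The submitters' notes name the build mRatBN7.2, whose chromosome 1 is likewise too short to reach that start, so this position is not on the named build and the build of the tables is not known. All positions of the members are given as the tables have them and are not comparable with the promoter positions.

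Stag2 and Stag1 are alternative subunits, of which each cohesin ring holds either. Stag2, also X-linked (chromosome X, 128493614 to 128624418, + strand, ENSRNOG00000029885), ran from 17.3 to 27.3 in the Control rats (median 24.4), 20.9 to 31.1 in the Low rats (median 26.1) and 18.9 to 23.9 in the High rats (median 21.3). It was 0.26 higher on the log2 scale in Low than in High (SE 0.084, 1.20-fold, adjusted p = 0.0421 by limma). This call was the least firm of the 4, since it was lost without each of 11 single libraries, without the filter on low genes (adjusted p = 0.0528) and in the FPKM column (0.17, adjusted p = 0.188). In High, 0 of 8 Stag2 values exceeded the Control median, yet the log2 fold change of -0.12 (SE 0.084) did not pass the threshold. Stag1 (chromosome 8, 108958046 to 109342738, + strand, ENSRNOG00000015389) ran from 6.15 to 11.2 in the Control rats (median 8.67), 6.04 to 10.9 in the Low rats (median 8.78) and 6.10 to 9.74 in the High rats (median 8.03). Its log2 fold changes were 0.028 in Low against Control, -0.16 in High against Control and 0.18 in Low against High (SE 0.12 in each), and none passed.

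By comparison, 1 of the 10 genes was called in Low against Control (Smc2, higher in Low), where 6.11% of all genes tested were called and 1.23% were called as higher. That last count of 192 genes was 841 without mitochondrial genes in the sum and 886 in the FPKM column. In Low against High 4 of 10 were called, all higher in Low (Smc2, Smc1a, Rad21 and Stag2), where 11.7% of all genes were called and 5.3% as higher. In High against Control 0 of 10 were called by limma, where 0% of all genes were, and at an unadjusted p under 0.05 there were 0 members and 330 genes (2.11%). The exact Wilcoxon test also called 0 genes there. The groups did not overlap for 0 of the 10 genes in any comparison, against 1.53% of all genes in Low against Control, 0.00639% in High against Control and 2.26% in Low against High. Low against Control and High against Control share the Control libraries, and both Low comparisons share the Low libraries, so these comparisons are not independent of each other.

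All 10 log2 fold changes were above 0 in Low against Control (0.028 to 0.26, median 0.12), as were 66.5% of all genes tested (median 0.062). In Low against High all 10 were again above 0 (0.071 to 0.31, median 0.20), as were 69.9% of all genes (median 0.091). In High against Control 9 of 10 were below 0 (-0.16 to 0.0096, median -0.062), as were most genes, with 36.0% above 0 (median -0.031). By complex, the median in Low against High was 0.23 for the cohesin genes, of which 3 of 5 were called. It was 0.16 for the condensin genes, of which 1 of 5 was called. Of all genes tested, 11.7% were called there and 5.3% were called as higher. Most condensin genes had lower levels, where the log2(scaled coverage + 1) scale understates changes, and no test between the complexes was run. The members' median thus lay 0.11 above that of all genes in Low against High. With unscaled coverage, which moved the median of all genes there to -0.11, it lay 0.11 above it as well, while its own value was -0.00083 and only 5 of 10 genes were above 0. The signs of the members' differences thus moved with the scaling.

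**Figure D2:**
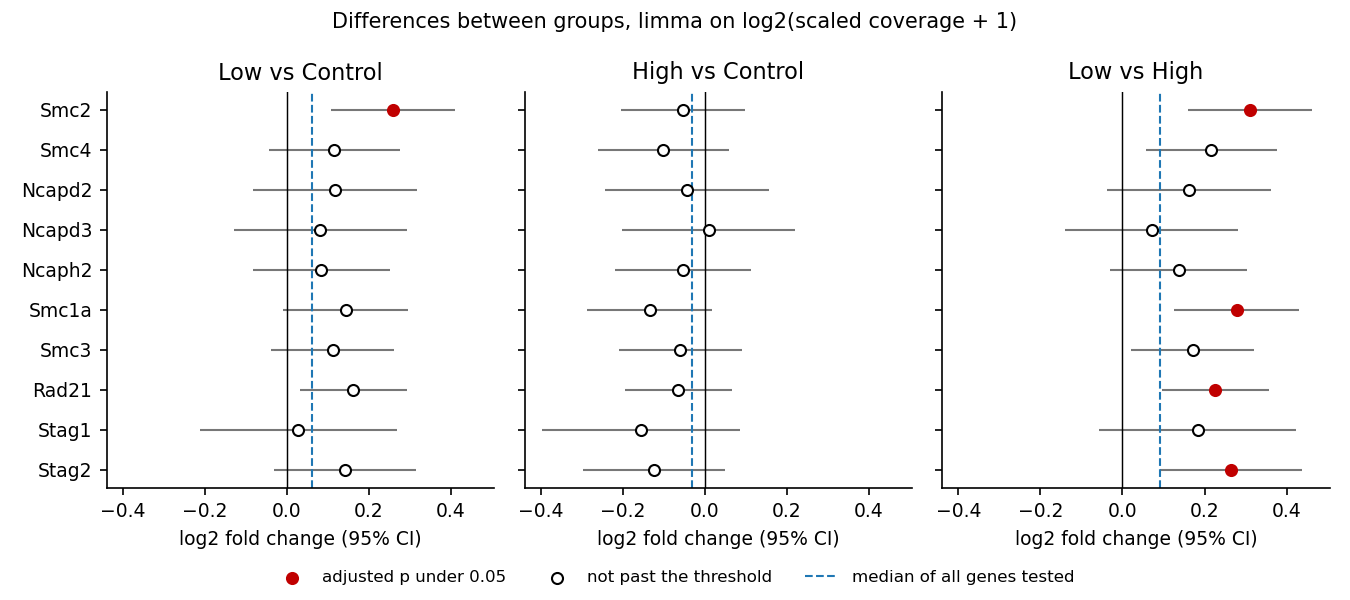
Log2 fold change (log2 of scaled coverage + 1, x axis) of each subunit gene with its 95% confidence interval, for Low vs Control, High vs Control and Low vs High. Filled red points passed an adjusted p of 0.05 (1, 0 and 4 genes), and the dashed blue line is the median of all 15644 genes tested, at 0.062, -0.031 and 0.091.

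Single libraries and the mitochondrial pattern bore on these counts. Control library 49 was the lowest of its group for 9 of the 10 genes and Low library 57 for 7 of 10. Without both, 7 of the 10 genes were called in Low against High, with Smc4, Smc3 and Ncaph2 added, where 28.8% of all genes were called. Then 0 of 10 were called in High against Control, beside 390 genes (2.49%). Without Low library 59 alone, 2 were called in Low against High (Smc2 and Smc1a), where 8.19% of all genes were called. With libraries 56 to 62 as a covariate, 0 of 10 were called by limma in each comparison. Of all genes, 2.31% were then called in Low against Control, 0% in High against Control and 2.26% in Low against High. The Low against High log2 fold changes of the 4 genes were then 0.30 for Smc2, 0.32 for Smc1a, 0.22 for Rad21 and 0.20 for Stag2 (adjusted p = 0.155 to 0.449 by limma). Within the Low group, the 6 libraries with the pattern and the 2 without it had like medians for Smc1a (70.6 and 74.0), Rad21 (76.1 and 78.6) and Stag2 (26.1 and 26.1). Control library 56, which shares the pattern, had 63.1 for Smc1a, 72.1 for Rad21 and 27.3 for Stag2. The medians of Control libraries 49 to 55 were 68.9, 71.4 and 24.1. These comparisons rest on 1 Control library with the pattern and 2 Low libraries without it.

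The proportions of subunits within a library were compared next. Each library's log2 ratio of coverage was formed for 5 pairs, which removes the scaling, and was compared by exact two-sided permutation tests in 3 comparisons. None of the 15 tests passed after Benjamini-Hochberg adjustment over the 15. Stag1 stood at 0.327 to 0.410 of Stag2 in the Control rats (median 0.372), 0.289 to 0.383 in the Low rats (median 0.343) and 0.292 to 0.408 in the High rats (median 0.373). The Low value of this log2 ratio was -1.56 ± 0.12 (SD, n = 8) against -1.44 ± 0.10 in Control, a difference of -0.12 with a 95% confidence interval from -0.24 to 0.0046 (exact permutation p = 0.0569, adjusted 0.598). From the FPKM column, in which Stag2 differs from coverage by group, the same difference was -0.021 (exact permutation p = 0.721).

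Smc2 stood at 1.09 to 1.54 of Smc4 in the Control rats (median 1.18), 1.23 to 1.63 in the Low rats (median 1.37) and 0.897 to 1.58 in the High rats (median 1.297). The log2 ratio differed by 0.15 between Low and Control, with a 95% confidence interval from -0.019 to 0.33 (exact permutation p = 0.0797, adjusted 0.598). Smc1a was 1.49 to 2.25 times as high as Smc3 over all groups, and Rad21 was 1.85 to 2.44 times as high as Smc3. In Low against Control these 2 log2 ratios differed by 0.031 and 0.049, and by -0.053 and -0.035 from the FPKM column. Evenness varied by pair, since the SD of the log2 ratio in Control was 0.069 for Rad21:Smc3, below that of either gene (0.14 for both), and 0.19 for Smc2:Smc4, above that of Smc2 (0.16) and Smc4 (0.14). The Rad21:Smc3 ratio was the tightest of the 5 in Control (log2 1.06 ± 0.069, SD, n = 8) and differed by -0.0048 between High and Control, with a 95% confidence interval from -0.090 to 0.080. Ncapd2 stood at 0.615 to 0.909 of Ncapd3 over all groups. These intervals bound shifts in proportion but do not show that the proportions were equal.

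**Figure D3:**
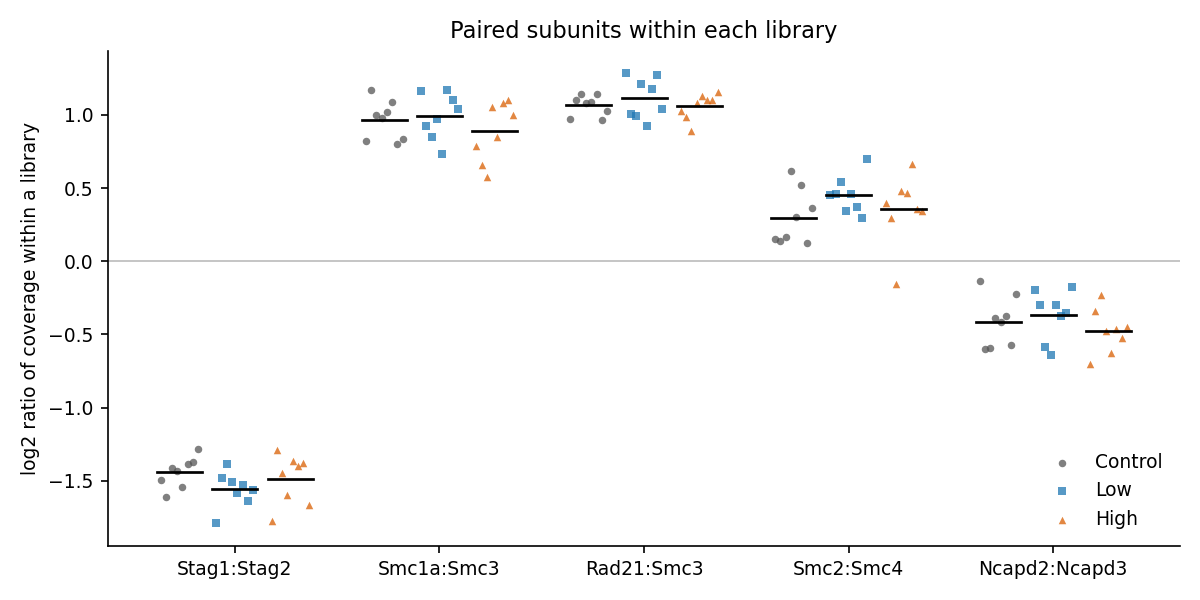
Log2 ratio of coverage of 5 pairs of subunits within each library, with Control as grey circles, Low as blue squares, High as orange triangles and the black bar at each group's mean. For each pair the 3 groups overlap, and 1 High library (67) lies below the others for Smc2:Smc4, at -0.16.

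Most pairs of subunit genes moved together from library to library. With group means removed, Pearson's r over the 24 libraries was positive for all 45 pairs of members, from 0.18 to 0.90 (median 0.67), and 39 of 45 pairs passed a permutation test within groups (100000 permutations, Benjamini-Hochberg adjusted over 45), as did 35 by Spearman's rho. A member's median r with the other 15643 genes tested was 0.21 to 0.41, so genes of these libraries were positively correlated in general. How many pairs of other genes would pass is not given here. Without libraries 49 and 57 the r of the 45 pairs ran from -0.021 to 0.84 (median 0.51). Smc4 then had values below 0 with Smc2, Ncaph2 and Smc1a. Stag1 and Stag2 were the closest pair (r = 0.90, rho = 0.86, permutation p = 1e-05, the smallest that can be given, adjusted 0.000112), and r was 0.84 without libraries 49 and 57, the farthest from the median. Ncapd3 and Ncaph2, both particular to condensin II, had r = 0.87 (rho = 0.78, permutation p = 1e-05, adjusted 0.000112), and 0.68 without the same libraries.

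The pairs of SMC ATPases that form the arms of each ring were not among the closest pairs. Smc2 and Smc4 had r = 0.24 (rho = 0.20, permutation p = 0.281, adjusted 0.287), and -0.021 without libraries 49 and 57. High library 67, with the lowest Smc2 (8.01) and the highest Smc4 (8.94) of its group, was kept in these values. The r of this pair without library 67 is not given here, so its low r may depend on that library. Smc1a and Smc3 had r = 0.36 (rho = 0.26, permutation p = 0.0950, adjusted 0.104), and 0.23 without libraries 49 and 70. Smc4 had higher r with Stag1 (0.62) and Stag2 (0.61) than with any condensin gene (0.24 to 0.38), whereas Smc2 had its highest with Ncaph2 (0.86, and 0.81 without libraries 49 and 57). The median r was 0.73 over the 10 cohesin pairs, 0.59 over the 10 condensin pairs and 0.63 over the 25 pairs across complexes. Without libraries 49 and 57 these medians were 0.65, 0.36 and 0.48. The share of mitochondrial coverage, which enters the scaling, had r from -0.66 (Smc1a) to -0.051 (Smc4) with the members, and its part in these correlations was not tested.

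**Figure D4:**
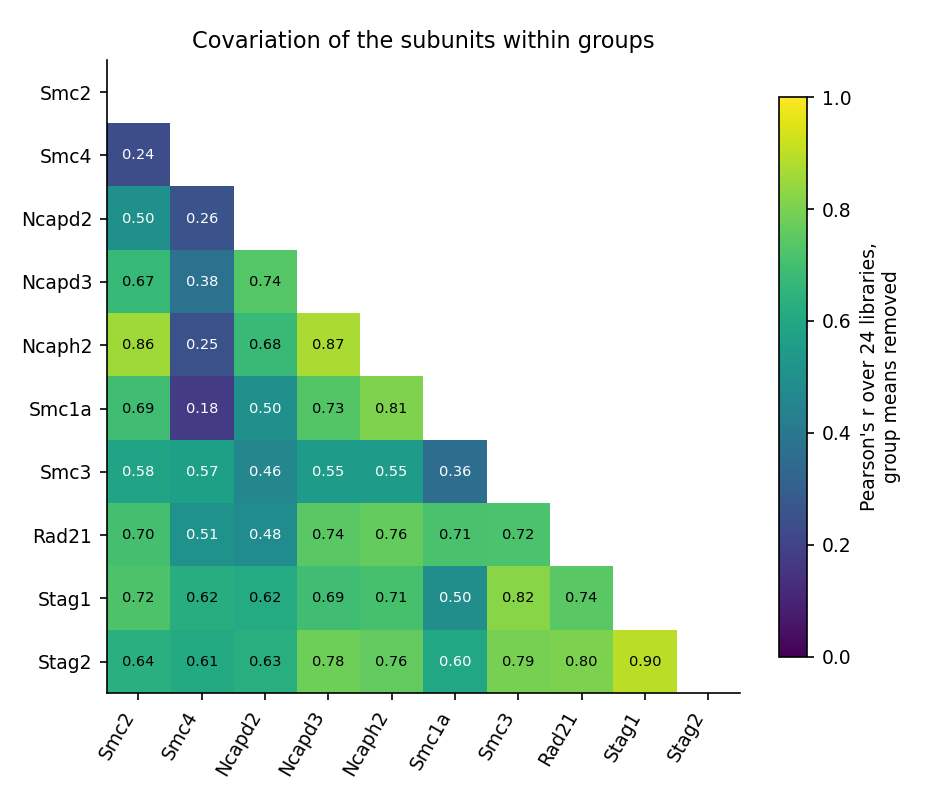
Pearson's r between the log2(scaled coverage + 1) of each pair of subunit genes over 24 libraries with group means removed, printed in each cell and coloured from 0 to 1. Smc4 has low values with the other condensin genes (0.24 to 0.38), and Stag1 with Stag2 has the highest value (0.90).

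Over the 24 libraries with the groups left in, the genes most like Rad21, the highest cohesin gene, were Ide, Ermp1 and Son (r = 0.91 for each), and those most like Ncaph2, the highest condensin gene, were Nfe2l1 (r = 0.95), Tnpo2 (0.94) and Jak1 (0.94). Their mean scaled coverage ran from 17.04 for Ide to 136 for Nfe2l1. The median r over all genes was 0.41 for Rad21 and 0.38 for Ncaph2.

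The relation between the FPKM and coverage columns differed by group for 3 of the 10 genes. Within a library, FPKM divided by coverage was the same constant for most genes, which is 1 after division by the library's median gene. It was within 0.005 of 1 in all 24 libraries for 6 of the 10 members and for 59.1% of all genes tested. For Ncaph2 it was 1.07 to 1.10 in Low and at most 1.005 in Control and High. For Smc3 the Low values were 1.05 to 1.10, those of Control 1.004 to 1.005 and those of High 1.004 to 1.006. For Stag2 it went the other way, with Low at 1.06 to 1.10, Control at 1.13 to 1.20 and High at 1.10 to 1.18. In these 3 genes the Low values did not overlap those of the other groups, as Low and Control values also did not for 15.6% of all genes tested, while High and Control were apart for 0.0959%. With FPKM in place of coverage, Smc3 was called in Low against High (0.22, adjusted p = 0.0401 by limma) and Stag2 was not, while the calls of Smc2, Smc1a and Rad21 were made in both columns.

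**Figure D5:**
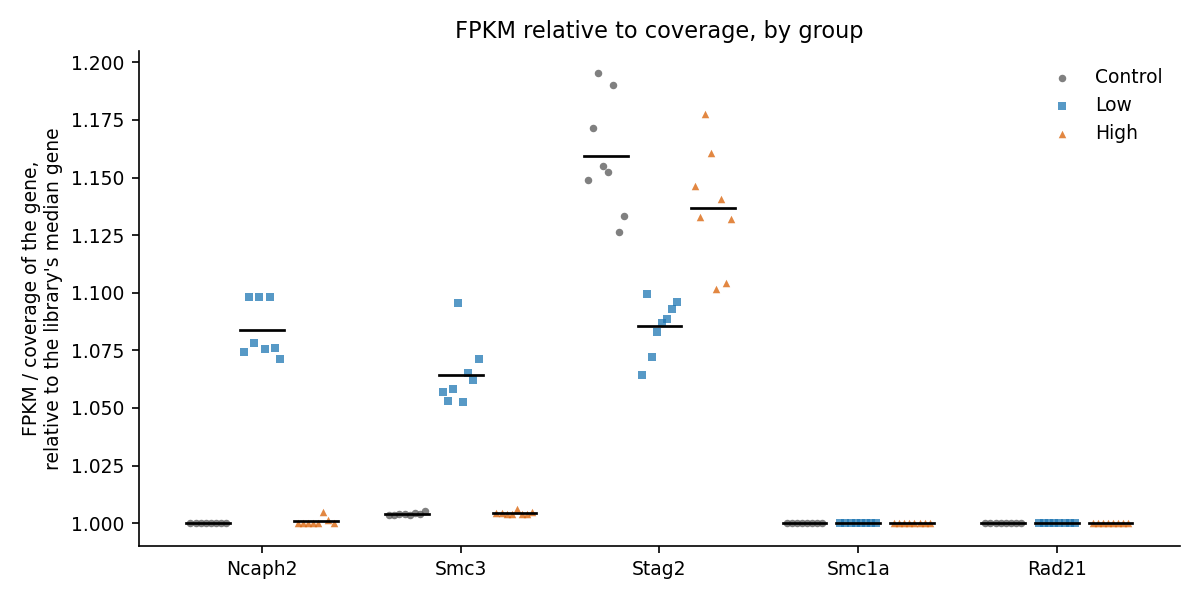
FPKM divided by coverage of a gene, relative to the median gene of the same library (y axis), for 5 of the subunit genes in each library, with the black bar at each group's mean. Ncaph2, Smc3 and Stag2 have Low values (blue squares) apart from Control and High, while Smc1a and Rad21 stay at 1.

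The loci that StringTie assembled in the 16 Control and High libraries gave another measure of the same reads. An assembled locus on the same strand that shared at least 50% of the span of both was found in 158 of 160 pairs of member and library. Its coverage was within 2% of that of the reference gene, by the median over libraries, for 5 of 10 members (Smc2, Smc4, Rad21, Stag1 and Stag2). It was 1.09 of it for Ncaph2, 0.897 for Smc1a, where the assembly was split into several loci in all 16 libraries, and 0.769 for Smc3. In High against Control all 10 differences of the assembled loci were below 0, from -0.22 for Stag1 to -0.060 for Ncapd2 on the log2 scale. For Ncapd3 and Stag1 only 7 of 8 Control libraries had a match, with library 49 missing. On those libraries the reference genes differed by -0.081 for Ncapd3 and -0.22 for Stag1. With all libraries they differed by 0.0096 and -0.16. Over all genes tested, 36.0% of the reference differences were above 0. The lowest unadjusted p of an exact two-sided permutation test was 0.0653, for Stag1, and the other 9 were higher. The assembled loci come from the same reads and are no independent support.

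The regulators of both complexes were read from a list of 35 genes, of which 34 were found by name and 23 passed the minimum mean. The remaining subunits of condensin were low in this tissue, with Ncapg2 at a mean of 3.19, Ncaph at 1.79 and Ncapg at 0.826. The meiotic cohesin genes were near 0, with Stag3 at 0.141, Rec8 at 0.0882 and Smc1b at 0.0107, while Rad21l1 was at 1.44. Genes used in mitosis, such as Esco2 (0.872), Sgo1 (0.251), Cdca5 (0.193) and Espl1 (0.203), were also below 1. The 4 highest of the list were Top2b (37.5), a topoisomerase of non-dividing cells, Ctcf (37.4), Nsmce4a (34.8) of the SMC5/6 complex and Mau2 (28.8), which loads cohesin onto DNA with Nipbl. None of these 4 was called in any comparison, and the nearest was Top2b in Low against High (0.23, adjusted p = 0.0539 by limma).

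In Low against High 4 of the 23 were called, 3 higher in Low and 1 lower, beside 11.7% of all genes tested, and the median log2 fold change was 0.18 against 0.091 over all genes. Nipbl, the cohesin loader, was 12.6 to 20.7 in the Low rats (median 19.1) and 12.3 to 16.5 in the High rats (median 14.7), with a log2 fold change of 0.32 (SE 0.095, adjusted p = 0.0300 by limma). Smc6, an SMC protein of the SMC5/6 complex, had 0.26 (SE 0.076, adjusted p = 0.0254), and Slf1, which brings that complex to damaged DNA, had 0.29 (SE 0.079, adjusted p = 0.0161). Over the 35 alternatives the call held in 24 for Nipbl, 29 for Smc6 and 33 for Slf1. All 3 calls were lost with the covariate for libraries 56 to 62 (adjusted p = 0.371, 0.316 and 0.252 by limma, in that order). They were also lost with unscaled coverage (adjusted p = 0.884, 0.948 and 0.893). In Low against Control 1 of 23 was called, beside 6.11% of all genes, and in High against Control 0 of 23, beside 0% of all genes, with 0 at an unadjusted p under 0.05 and 0 by the exact Wilcoxon test.

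Pds5b, which holds cohesin on DNA or helps to release it, was the gene called as lower in Low. Its scaled coverage was 16.4 to 21.6 in the Low rats (median 19.5), 17.2 to 34.1 in the Control rats (median 30.8) and 20.6 to 31.0 in the High rats (median 26.6). The log2 fold change was -0.56 (SE 0.10, adjusted p = 0.000677 by limma) in Low against Control and -0.46 (SE 0.10, adjusted p = 0.00399) in Low against High. In the FPKM column the direction turned, with 0.26 (adjusted p = 0.211) against Control and 0.39 (adjusted p = 0.0280) against High. FPKM relative to coverage was 1.78 to 2.51 for Pds5b in Low, against 1.14 to 1.52 in Control and 1.06 to 1.56 in High. No direction can therefore be given for Pds5b from these tables. Smc6 also had a gap (Low 2.28 to 2.54, Control 1.83 to 2.20, High 1.60 to 2.07), but its direction was the same in FPKM, with 0.70 in Low against High (adjusted p = 2.25e-06 by limma) and 0.42 in Low against Control (adjusted p = 0.00207). In contrast, Nipbl and Slf1 stayed at 1 in every group.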

How the data were processed

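RNA-Seq of frontal cortex was measured in 24 rats, 8 per group, grouped by the concentration in the labels. Per the labels, the authors used poly(A) RNA, a stranded TruSeq kit, FastQC, Trimmomatic, TopHat2 and StringTie, with mRatBN7.2 named as the build. Their versions and options: not given in the sources used here. The authors deposited 1 gene table per library. The deposited coverage (a signal, mean depth per base) is not scaled for depth, and the deposited FPKM was scaled by StringTie. TPM was not used, and 0 columns belonged to other samples. The study states a read number per sample and calls this depth low. No table gives counts, so the depth of each library is unknown, and the number of rats limits the precision. That the 8 rats were separate animals follows from the study's description.

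The members and all gene lists were chosen with earlier results of these data known. Coverage was summed per reference gene and scaled to 1000000. Genes with a mean of at least 1 were tested with limma 3.58.1 (R 4.3.3, trend and robust, two-sided) on log2(value + 1) in a joint fit of the 3 groups, at a Benjamini-Hochberg adjusted p of 0.05. Ratios used exact permutation tests. Limma and the permutation test were tested on simulated data. Named genes are the 10 members, the genes of the regulator list past the threshold or among its 4 highest, and the 3 genes most like Rad21 and Ncaph2. Other genes of the regulator list and markers named with a mean were chosen after their values were seen. Alternatives were pseudocount 0.1, no filter, minimum mean 5, other scalings, fewer groups, Wilcoxon tests, libraries 56 to 62 as a covariate (a pattern in the data, not a condition) and leaving out each library. The FPKM column (for genes and ratios) and leaving out libraries 49 and 57 together were added after seeing the data. The other steps used scipy 1.17.1, numpy 2.4.6, pandas 2.3.3, matplotlib 3.10.9 and Python 3.11.15. Promoter sequences are those of RefSeq, build GRCr8.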

Additional observations from a re-analysis of the deposited data

Results flagged for a closer look

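Over 45 sets of 8 values (10 genes and 5 ratios in 3 groups), 1 library stood far from the rest of its group by Dixon's test, where chance would give about 2.25. It was High library 67, whose log2 ratio of Smc2 to Smc4 was -0.16, against 0.29 to 0.66 in the other 7 High libraries. Smc2 was lowest in its group there (8.01) and Smc4 was highest (8.94). Without this library the Low against High difference of the ratio was 0.024 in place of 0.098, and Smc4 was called in Low against High (0.26).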

How the results depend on the processing

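The limits are the unknown depth of each library, the confounding of table kind with the Low group, and the scaling. Of the 10 genes, 1 was called in Low against Control. The count was 0 by the exact Wilcoxon test (where 2.37% of all genes were called) and with the covariate for libraries 56 to 62 (2.31%). It was 0 without scaling (4.01%) and with only the 2 groups compared (3.62%). Without mitochondrial genes in the sum it was 2 (10.8%), and with each library left out it was 0 to 1 (4.31 to 7.86%). In Low against High the count of 4 was 0 with the covariate (where 2.26% of all genes were called) and 0 without scaling (7.24%). It was 7 without libraries 49 and 57 (28.8%), and 2 to 6 with each library left out (8.13 to 17.1%). For the regulator list, 1 of the 23 genes tested was called in Low against Control (6.11% of all genes). The count was 2 in the FPKM column (where 11.28% of all genes were called) and 0 by the Wilcoxon test (2.37%). The Low against High count of 4 (11.7% of all genes) was 1 with the covariate (2.26%) and 1 without scaling (7.24%). It was 7 with only the 2 groups compared (12.97%) and 14 without libraries 49 and 57 (28.8%). With each library left out it was 2 to 10 (8.13 to 17.1%). In High against Control both counts stayed 0 under all 35 alternatives, while over all genes 390 were called without libraries 49 and 57.

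Signs turned mostly without scaling, where High against Control became 0.12 for Smc2, 0.066 for Smc4, 0.12 for Ncapd2, 0.13 for Ncaph2, 0.047 for Smc1a, 0.12 for Smc3, 0.12 for Rad21, 0.011 for Stag1 and 0.055 for Stag2, and the median of all genes became 0.14. In Low against High it became -0.027 for Ncapd2, -0.13 for Ncapd3, -0.078 for Ncaph2, -0.042 for Smc3 and -0.012 for Stag1. Ncapd3 in Low against High was -0.014 with median-of-ratios scaling. Stag1 in Low against Control was -0.079 with the covariate, -0.024 when scaled by median of ratios and -0.0016 unscaled, and -0.034 to 0.098 with each library left out, turning without Control 49, Low 59 and Low 62. Ncapd3 in Low against Control was -0.0100 to 0.13, turning without Control 49. In High against Control, Ncapd3 was -0.081 without libraries 49 and 57 and -0.081 to 0.055 with each library left out, turning without Control 49, Control 51 and High 70, and Ncapd2 was -0.099 to 0.0059, turning without Control 54. None of these values passed the threshold.

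The 15 ratio differences did not pass the threshold under any of their alternatives (both genes as log2 of scaled coverage + 1, the Wilcoxon test, each library left out and, added after seeing the data, the FPKM column). In FPKM the sign turned for Smc1a:Smc3 (-0.053) and Rad21:Smc3 (-0.035) in Low against Control and for Rad21:Smc3 in Low against High (-0.030), and Stag1:Stag2 in Low against Control shrank to -0.021. Rad21:Smc3 in High against Control also turned, at -0.019 to 0.019 with each library left out, above 0 without Control 50, 51 or 54 or without High 66 or 67. The share of higher among called genes moved with the column, from 192 higher and 764 lower in Low against Control to 886 and 879 in FPKM and to 841 and 847 without mitochondrial genes in the sum, and in Low against High from 829 and 999 to 373 and 1283 with median-of-ratios scaling. The causes of these shifts were not tested. No paired analysis was possible because the library numbers in the labels differ between the groups.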
